A study of Homo sapiens with 16 samples.

Results

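The 10 antioxidant defence genes CAT, SOD1, SOD2, GPX1, GPX4, PRDX2, GCLC, GCLM, TXNRD1 and NQO1, of 19343 protein-coding genes in the deposited annotation, were examined for binding of the repressors BCL11A and ZBTB7A. The genes were chosen by name, with earlier results of these data known. Every region of the 4 deposited peak lists was collected whose summit, or midpoint where no summit is given, lay in the gene or within 20 kb of either end. A promoter region lay within 1 kb of the start of a protein-coding (NM_) transcript. This gave 33 of 12911 BCL11A regions, 23 of 17331 K562 regions, 34 of 18784 195C>G regions and 70 of 36435 WT regions.

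Chromatin immunoprecipitation with sequencing (ChIP-seq) recovers the DNA to which a protein is bound, and a peak list names the stretches of genome where ChIP reads exceed a control. BCL11A was measured in HUDEP-2, an immortalised human erythroid progenitor line, after induction of BCL11A-ER-V5 for 24 h with 4-hydroxytamoxifen at 1e-07 M and pull-down through the V5 tag (2 ChIP and 2 control libraries), so the protein is an added, tagged one. ZBTB7A was measured in K562, an erythroleukaemia line (4 ChIP and 4 control libraries), with antibodies to the protein itself. It was also measured in HUDEP-2 (ΔGγ) cells, once with the 195C>G change of the γ-globin promoter and once with the WT promoter (1 ChIP and 1 control library each). The 195C>G and WT cells thus both carry the ΔGγ deletion of a γ-globin gene, which the labels do not give for the BCL11A and K562 cells. No RNA was measured here, so neither the level of the 10 genes nor the identity of the cells could be checked. Scores (BCL11A) and signals (195C>G and WT) are the authors' own and were used only within their list. The rank of a region is its place in the list from the highest value, or its place in the file for K562, whose list holds no values. A WT region overlapped 71.0% of the first 50% of K562 regions in that order and 54.1% of the rest, but whether the order follows strength was not tested. Read depth is unknown, lists pool replicates or come from 1 library, and no spread between replicates or p-value can be given.

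Red cells carry oxygen on heme iron and form superoxide as haemoglobin oxidises. Superoxide dismutases convert it to hydrogen peroxide, which catalase, glutathione peroxidases and peroxiredoxins remove. Glutathione is made from a dipeptide that glutamate-cysteine ligase supplies, and thioredoxin reductase and quinone reductase spend NADPH to keep thiols and quinones reduced. Several of these genes are targets of the transcription factor NRF2, encoded by NFE2L2, which binds antioxidant response elements and is held in check by KEAP1.

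Shown first are the promoters of CAT, GCLM, PRDX2, GCLC and NQO1. Each is given as the 250 bases before the RefSeq start (GRCh38.p14, 5′ to 3′ on the strand of the gene). CAT had a promoter region in every list, as did SOD2, GPX4, PRDX2 and GCLM. GCLM had its BCL11A and ZBTB7A regions at shifted positions. PRDX2 and GCLC ranked high in HUDEP-2 ZBTB7A, where CAT ranked above both in WT and GPX1 above PRDX2 in 195C>G. NQO1 had a region in K562 alone, and TXNRD1 had promoter regions in WT alone. Capitals mark GACCC or its complement GGGTC, a C-rich word searched as an approximation of the C-rich DNA that ZBTB7A binds, and TGACNNNGC or its complement, the core of the antioxidant response element. The windows are chr11:34438684-34438933 (plus strand) for CAT, chr1:93909431-93909680 (minus) for GCLM, chr19:12801801-12802050 (minus) for PRDX2, chr6:53545102-53545351 (minus) for GCLC and chr16:69726561-69726810 (minus) for NQO1.
CAT: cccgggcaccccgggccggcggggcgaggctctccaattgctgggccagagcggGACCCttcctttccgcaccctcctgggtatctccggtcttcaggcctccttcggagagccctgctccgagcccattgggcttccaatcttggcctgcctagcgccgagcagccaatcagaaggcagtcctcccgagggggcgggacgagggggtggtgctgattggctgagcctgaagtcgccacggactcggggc
GCLM: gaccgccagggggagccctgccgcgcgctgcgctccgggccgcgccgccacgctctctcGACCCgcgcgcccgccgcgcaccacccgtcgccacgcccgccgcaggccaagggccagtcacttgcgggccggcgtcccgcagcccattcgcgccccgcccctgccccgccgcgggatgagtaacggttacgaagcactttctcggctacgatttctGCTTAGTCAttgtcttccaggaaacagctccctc
PRDX2: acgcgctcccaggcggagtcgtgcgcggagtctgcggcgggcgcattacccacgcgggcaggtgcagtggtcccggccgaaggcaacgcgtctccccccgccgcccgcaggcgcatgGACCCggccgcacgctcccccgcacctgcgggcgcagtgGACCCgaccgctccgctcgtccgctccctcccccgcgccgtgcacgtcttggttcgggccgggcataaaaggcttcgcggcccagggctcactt
GCLC: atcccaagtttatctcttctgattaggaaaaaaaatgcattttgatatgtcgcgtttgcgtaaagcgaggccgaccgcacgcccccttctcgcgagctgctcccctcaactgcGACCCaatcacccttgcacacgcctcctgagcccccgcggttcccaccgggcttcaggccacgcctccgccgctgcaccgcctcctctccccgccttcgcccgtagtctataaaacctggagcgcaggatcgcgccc
NQO1: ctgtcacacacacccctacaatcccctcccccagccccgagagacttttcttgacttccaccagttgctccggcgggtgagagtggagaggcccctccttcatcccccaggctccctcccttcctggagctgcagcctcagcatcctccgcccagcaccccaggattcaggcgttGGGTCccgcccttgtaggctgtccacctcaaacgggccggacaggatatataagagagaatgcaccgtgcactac

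Promoter regions were found at 7 of the 10 genes for BCL11A, 7 in K562, 7 in 195C>G and 9 in WT. Among all 19343 genes the shares with a promoter region were 24.4% for BCL11A, 33.2% in K562, 29.1% in 195C>G and 44.9% in WT. CAT, SOD2, GPX4, PRDX2 and GCLM had one in all 4 lists, as did 10% of all genes. GCLC, SOD1, GPX1, TXNRD1 and NQO1 were missing from 1 list or more. GCLC had none in K562, SOD1 none in 195C>G, GPX1 none for BCL11A or in K562, TXNRD1 was found in WT alone and NQO1 in K562 alone. The shares over all genes take in genes of every activity, and the part of expression or chromatin state in the members' counts was not tested. Each of the 10 members had a promoter region in at least 1 list, as did 54.9% of all genes, and no single list had one at all 10. With the stronger 50% of the BCL11A list 4 members remained (CAT, SOD2, GPX4 and GCLM), against 13.8% of all genes. The first 50% of the K562 file held the same 4, against 20.8% of all genes. The stronger 50% held 7 members in 195C>G, against 17.8% of all genes, and 8 in WT, against 32.8%.

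The best promoter region of the members stood at a median of 24.2% of the list length for BCL11A (7 members), 18.3% in K562 (7), 15.3% in 195C>G (7) and 4.96% in WT (9). Over all genes with a promoter region the medians were 44.0% for BCL11A, 37.9% in K562, 40.0% in 195C>G and 28.5% in WT. A low percentage is a place near the top of a list. The BCL11A and K562 medians are the values of SOD2, from regions shared with the starts of its neighbours. With SOD2 counted at its main start only, the medians were 32.5% for BCL11A, 39.2% in K562, 15.3% in 195C>G and 4.96% in WT, so that the K562 median then lay past that of all genes. Spread among the members was wide, from 7.35% (GCLM) to 72.1% (SOD1) for BCL11A, from 16.9% (GCLM) to 88.9% (NQO1) in K562, from 5.25% (GCLC) to 31.0% (GCLM) in 195C>G and from 1.66% (CAT) to 50.8% (TXNRD1) in WT.

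**Figure D1:**
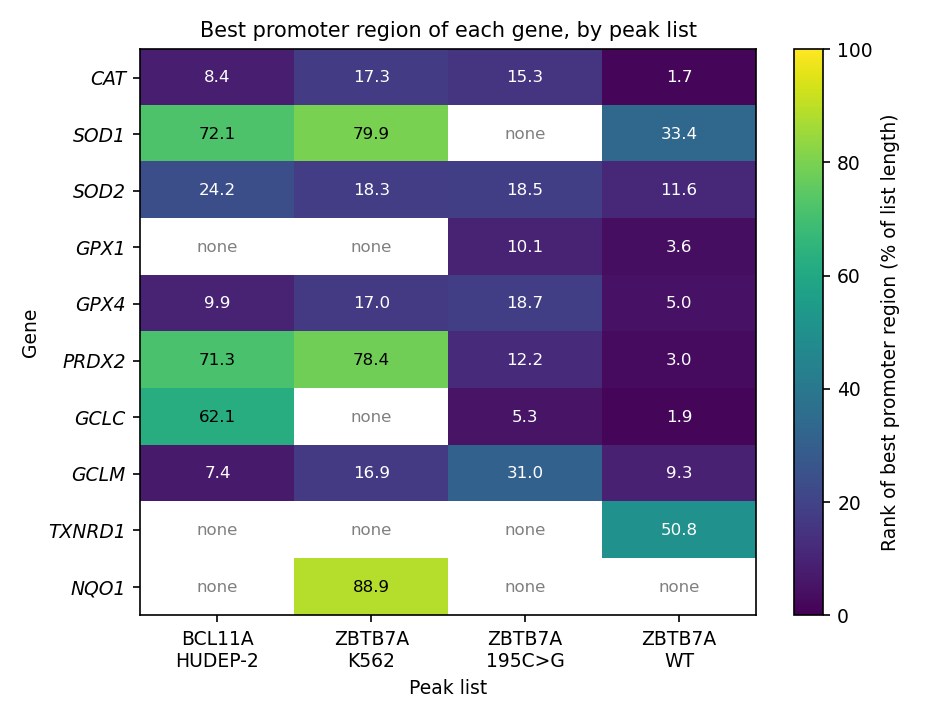
Rank of the best promoter region of each gene (rows) in each peak list (columns), as a percentage of the list length, on a colour scale from 0 (top of the list) to 100. Empty cells marked none have no promoter region; CAT, SOD2, GPX4, PRDX2 and GCLM are filled in all 4 columns, and NQO1 in K562 alone.

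Catalase, the heme enzyme that splits hydrogen peroxide, is encoded by CAT on chromosome 11, plus strand. In hg38 its BCL11A promoter region ran from 34438552 to 34438831, with a score of 111 and rank 1083. The K562 region, from 34438460 to 34438908, held rank 2999 and overlapped the BCL11A region. On the modified chromosome 11, where CAT lies 4928 bp lower, the 195C>G region ran from 34433486 to 34434085 with a signal of 71.4 and rank 2874. The best WT region there ran from 34433521 to 34433898 with a signal of 120.5 and rank 605. The 4 regions were centred close together: the BCL11A midpoint lay 234 bp upstream of the annotated start, the K562 midpoint 241 bp, the 195C>G summit 211 bp and the WT summit 219 bp. The GACCC that begins 187 bp upstream of the same start lay inside all 4, at 49 bp from the BCL11A midpoint, 56 bp from the K562 midpoint, 26 bp from the 195C>G summit and 34 bp from the WT summit. A second WT region overlapped the first, with its summit at -19 bp and rank 8043.

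Inside CAT, BCL11A had an intronic region at rank 2202 (score 68.8) with its midpoint 7668 bp downstream of the start. WT had an intronic region with its summit at 7597 bp (rank 13696, signal 31.0) and a further one at 25931 bp (rank 16745, signal 27.2). Neither K562 nor 195C>G had an intronic region. The promoter was therefore the only place at CAT with a region in all 4 lists.

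SOD1, on chromosome 21, encodes the cytosolic copper-zinc superoxide dismutase. Its BCL11A region (31659804 to 31660173, score 20.4) held rank 9308 and its K562 region (31660144 to 31660276) rank 13842, both in an intron, with midpoints 366 bp (BCL11A) and 588 bp (K562) downstream of the start. The 195C>G list had no region at SOD1. The WT region (31659190 to 31659833, signal 33.3, rank 12185) had its summit 110 bp upstream of the start. It overlapped the BCL11A region and not the K562 region, so the ZBTB7A regions of WT and K562 lay at different places of the same promoter.

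SOD2, on chromosome 6, encodes the mitochondrial manganese superoxide dismutase and has 4 annotated NM_ starts, of which the one at 159693328 is used by 6 of 9 transcripts. Just upstream of that start all 4 lists had overlapping regions. They were centred at -373 bp for BCL11A (rank 4195, score 42.6), -340 bp in K562 (rank 6786), -459 bp in 195C>G (rank 8655, signal 41.8) and -376 bp in WT (rank 6110, signal 49.2). K562 had another region at 119 bp (rank 11515) in the 5′ untranslated exon. The other SOD2 starts lie farther upstream, next to WTAP, an RNA methylation cofactor gene, and ACAT2, a thiolase gene, and the regions there are within 1 kb of the starts of those genes too. They include the best SOD2 rank of each list, 3121 for BCL11A (at WTAP), and 3168 in K562, 3468 in 195C>G and 4236 in WT (at ACAT2), so these ranks cannot be assigned to SOD2 alone. The 195C>G summit of rank 3468 lay 995 bp from an SOD2 start, just inside the 1 kb limit.

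**Figure D2:**
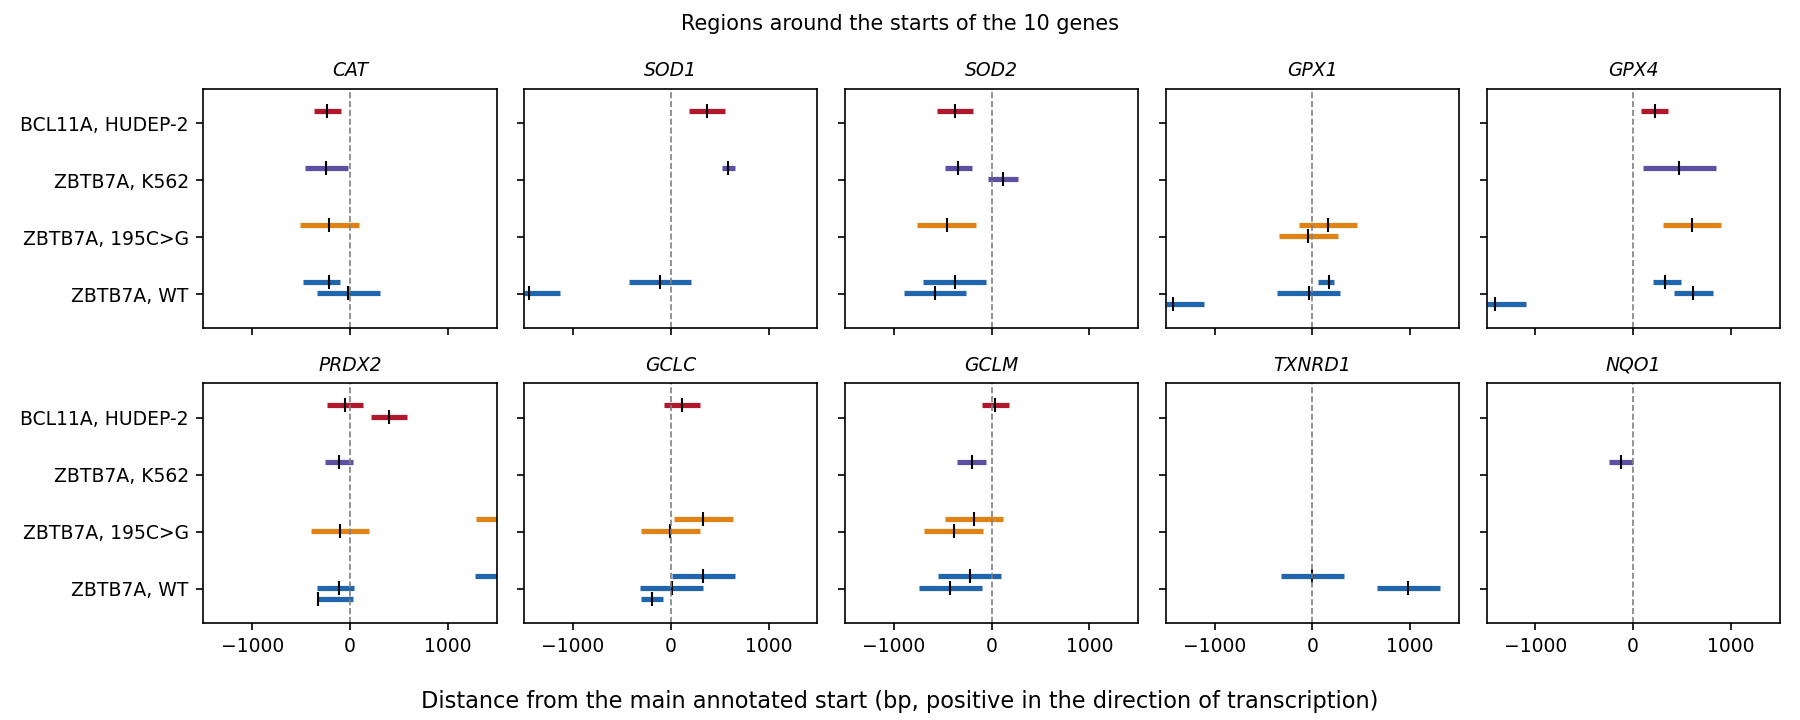
Regions of the 4 peak lists around the start used by most NM_ transcripts of each gene (dashed line at 0; x axis in bp, positive in the direction of transcription). Horizontal bars span the regions, one row of colours per list, and black ticks mark the summit or midpoint; at CAT the ticks of the best regions lie between -241 and -211 bp, and at GCLM the BCL11A tick lies at 40 bp while the best ZBTB7A ticks lie between -222 and -182 bp.

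The peroxidases differed by list. GPX1, on chromosome 3, encodes the main glutathione peroxidase of red cells, and it had promoter regions in the HUDEP-2 ZBTB7A lists only. The 195C>G region (49358141 to 49358740, signal 84.5) held rank 1895 and the WT region (49358380 to 49358542, signal 94.5) rank 1303, with summits at 159 bp (195C>G) and 166 bp (WT) in the 5′ untranslated exon. Each list had a second, weaker region there, at rank 10804 in 195C>G and 13939 in WT. BCL11A came no closer than 3080 bp upstream, at rank 11284. Downstream of GPX1, at the start of USP4, a ubiquitin protease gene, all 4 lists had a region, at rank 4380 for BCL11A, 1779 in K562, 3816 in 195C>G and 1261 in WT.

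GPX4 encodes the peroxidase that reduces lipid hydroperoxides in membranes, and lies on chromosome 19. Its BCL11A region (1104008 to 1104285, score 98.9) held rank 1284, the K562 region (1104024 to 1104772) rank 2939, the 195C>G region (1104230 to 1104829, signal 65.4) rank 3510 and the best WT region (1104127 to 1104420, signal 84.1) rank 1806. All of them lay between the 2 annotated starts or across the second. The BCL11A midpoint was the most upstream, 220 bp from the first start, against 472 bp for the K562 midpoint. The 195C>G summit lay at 604 bp, and WT had summits at 328 bp and, in a region of rank 1934, at 611 bp. The 3 GACCC words found at GPX4, on the opposite strand with first bases 512 to 541 bp from the first start, were held by the K562 region, the 195C>G region and the WT region of rank 1934, and not by the BCL11A region or the WT region of rank 1806. Just past the 3′ end of GPX4 there were also regions at rank 8404 for BCL11A, 11556 in 195C>G and 7369 in WT, which overlapped each other.

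PRDX2, on chromosome 19, encodes peroxiredoxin 2, one of the most abundant proteins of the red cell. At its promoter the HUDEP-2 ZBTB7A regions stood in the upper part of their lists, at rank 2289 in 195C>G (12801715 to 12802314, signal 78.3) and rank 1079 in WT (12801872 to 12802247, signal 100.8). The BCL11A region (12801776 to 12802145, score 20.6) held rank 9200 and the K562 region (12801879 to 12802162) rank 13592, both in the lower part of their lists. All 4 overlapped, with centres at -50 bp for BCL11A, -110 bp in K562, -105 bp in 195C>G and -116 bp in WT. The GACCC words in capitals above, which begin at -23 and 16 bp of the annotated start, lay inside all 4. An intronic region 1.6 kb into the gene was present in HUDEP-2 ZBTB7A alone: its rank was 2113 in 195C>G (12800020 to 12800619, signal 80.7) and 175 in WT (12800028 to 12800635, signal 165), and neither BCL11A nor K562 had a region that overlapped it.

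The neighbourhood of PRDX2 held more regions than that of any other member, with 15 BCL11A, 7 K562, 15 195C>G and 20 WT regions within 20 kb. The median gene had 0 BCL11A, 1 K562, 1 195C>G and 2 WT regions in its own span, and at least as many as at PRDX2 were found at 0.258% of genes for BCL11A, 2.82% in K562, 0.279% in 195C>G and 0.698% in WT. These counts take overlapping regions separately, and the 20 WT regions formed 13 sites. No such share was computed for the genes of chromosome 19 alone, which held 3988 of the 36435 WT regions. Most of the regions at PRDX2 lay downstream of it towards JUNB, an AP-1 factor gene, and HOOK2, a microtubule linker gene. The region of best rank was 19 kb downstream of the start for ZBTB7A, at rank 2189 in K562 (12782371 to 12783371), rank 267 in 195C>G (12782622 to 12783046, signal 154) and rank 152 in WT (12782350 to 12783310, signal 174). A BCL11A region overlapped it at rank 6880. For BCL11A the best region lay 13 kb downstream (12788597 to 12788891, score 207, rank 413), and it was overlapped at rank 5501 in K562, 1250 in 195C>G and 216 in WT. The starts of HOOK2 and JUNB are closer to these regions than that of PRDX2, and which gene they act on was not tested.

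**Figure D3:**
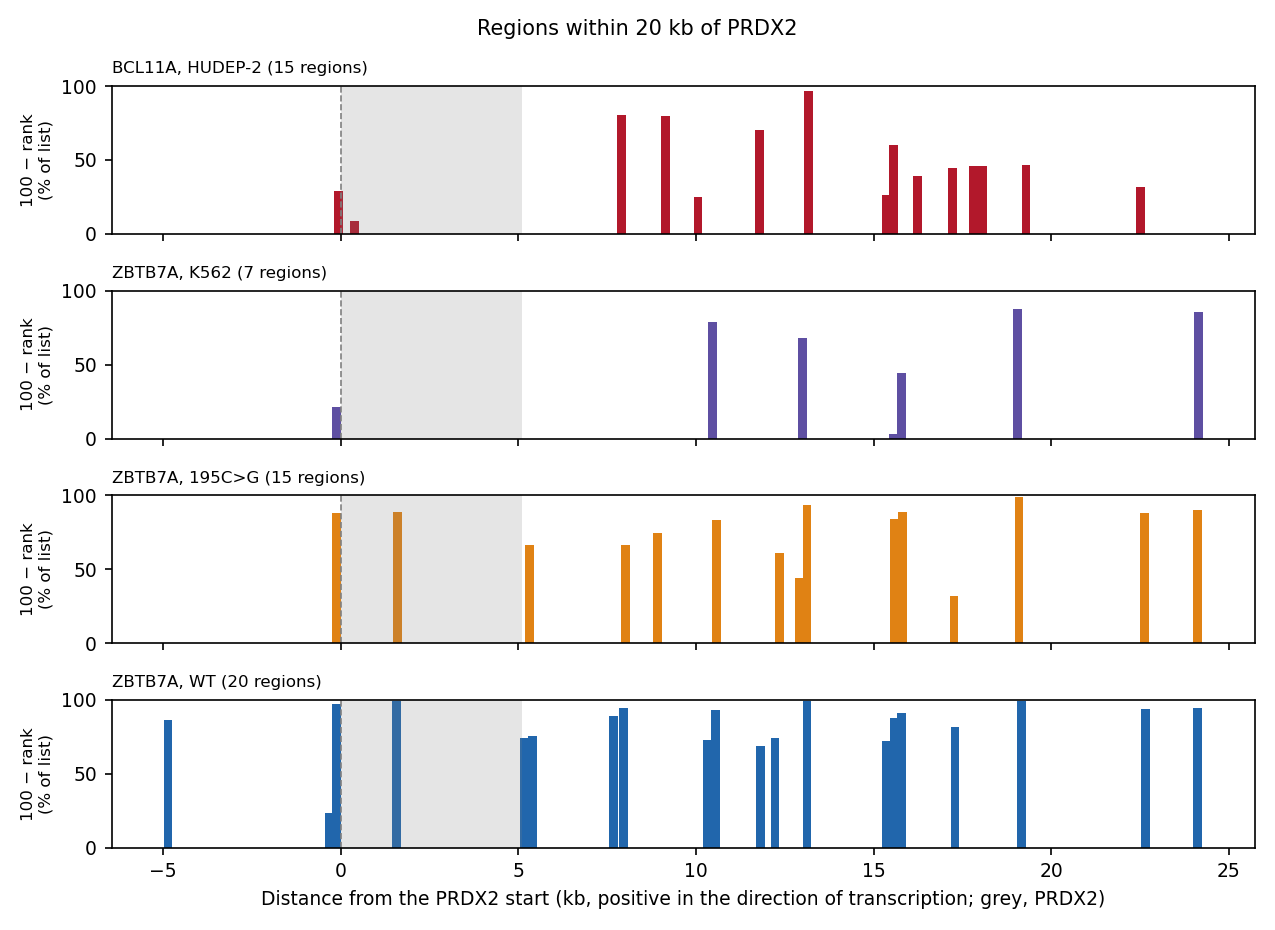
Regions within 20 kb of PRDX2 in each list (panels), by distance of the summit or midpoint from the PRDX2 start in kb (x axis), with height 100 minus the rank as a percentage of list length (y axis, taller is nearer the top of the list); grey marks the gene. Regions 13 and 19 kb downstream appear in all 4 panels, and the one 1.6 kb into the gene in the 195C>G and WT panels.

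Glutamate-cysteine ligase, the rate-limiting enzyme of glutathione synthesis, has a catalytic subunit encoded by GCLC on chromosome 6 and a modifier subunit encoded by GCLM on chromosome 1. At GCLC the HUDEP-2 ZBTB7A regions ranked high, at 987 in 195C>G (53544496 to 53545095, signal 106) and 685 in WT (53544476 to 53545119, signal 116), with summits at 333 bp (195C>G) and 331 bp (WT) in the 5′ untranslated exon. BCL11A had a weak region there (53544833 to 53545202, score 23.8, rank 8021) and K562 had none. The nearest K562 region lay 2946 bp upstream (53547971 to 53548180, rank 11641), where a BCL11A region (53548127 to 53548395, score 98.4) stood at rank 1293. The GCLC regions of HUDEP-2 ZBTB7A closest to that place, with summits at -2425 bp in 195C>G (rank 6479) and -2402 bp in WT (rank 15795), did not overlap the BCL11A region or the K562 region. The GACCC of the GCLC window begins at -109 bp from the annotated start, inside further promoter regions of 195C>G (rank 6801) and WT (ranks 1750 and 10704) and outside the BCL11A region and the best ZBTB7A regions.

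At GCLM all 4 lists had a promoter region, and the BCL11A region (93909419 to 93909697, score 121, rank 949) had the best promoter rank of any member in that list. The K562 region (93909651 to 93909949) held rank 2928, the 195C>G region (93909480 to 93910079, signal 51.6) rank 5827 and the WT region (93909498 to 93910141, signal 64.9) rank 3388. BCL11A was centred 40 bp downstream of the annotated start, and ZBTB7A upstream of it, at -202 bp in K562, -182 bp in 195C>G and -222 bp in WT, although these regions overlapped. The match to the antioxidant response element core, GCTTAGTCA, which begins 134 bp downstream of that start (34 bp upstream of the RefSeq start), lay inside the BCL11A region and outside every ZBTB7A region. The GACCC word at -23 bp lay inside the BCL11A, 195C>G and WT regions and outside the K562 region. The BCL11A and K562 lists give no summit, so these 2 positions are known only as well as their regions, of 279 bp for BCL11A and 299 bp in K562.

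TXNRD1, the cytosolic thioredoxin reductase gene on chromosome 12, and NQO1, the quinone reductase gene on chromosome 16, had few regions. TXNRD1 spans 134529 bp and had no BCL11A or 195C>G region at all. In K562 it had an intronic region at rank 12800 (104253378 to 104253867). In WT it had promoter regions at both annotated starts, at rank 18494 (104215427 to 104216070, signal 25.3) and rank 21324 (104286361 to 104287004, signal 22.8), the stronger of them close to the middle of the list. The first of these held a GACCC and matches to the response element core, TGACTTCGC at 65 bp from the summit and GCTCCGTCA at 26 bp. The second held another match, GCTTTGTCA, at 251 bp from its summit. WT also had a weaker promoter region with its summit 981 bp downstream of the second start (rank 34210). A WT flank region lay 14213 bp upstream of the first start (rank 29462). NQO1 had a single region in all the lists, at its promoter in K562 (69726630 to 69726877, rank 15410). Its midpoint lay 85 bp upstream of the nearest annotated start, and the GGGTC of the NQO1 window lay inside it.

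The motif searches covered the 15 RefSeq windows of 300 bases (250 before to 50 after a start) that the table holds for 9 of the 10 genes, on both strands. GACCC was found in 10 of the 15 member windows and in 47.6% of all 35116 windows. The response element core TGACNNNGC was found in 3 member windows (1 of GCLM and 2 of TXNRD1) and in 13.3% of all. TGACCA, the motif of BCL11A, was found in 2 overlapping windows of GPX4, outside the regions of every list, and in 10.7% of all, and AGATAA, a motif of GATA factors, in 1 window of GCLC and in 10.3% of all. No match of one motif overlapped a match of another. The member windows had a median GC content of 69.7%, against 58.7% for all windows, and the part of GC content in these match counts was not tested.

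The 195C>G and WT lists were compared at the members to see which ZBTB7A regions were in both. Of 34 195C>G regions, 33 (97.1%) had a WT overlap, against 89.3% of the whole 195C>G list. The remaining one lay 8915 bp downstream of the PRDX2 start (rank 4801, signal 56.6), where BCL11A had a region at rank 2589. In 195C>G there was an overlap for 46 of 70 WT regions (65.7%, exact Clopper-Pearson 95% interval 53.4 to 76.7%), against 54.3% of the whole WT list. The interval covers counting error only and includes none of the dependence between overlapping regions. WT rank bears on this share, which was 96.0% in the top decile of WT rank and 23.8% in the lowest, and the members' deciles sum to 44.6 regions. PRDX2 alone held 19 of the 46 overlapped regions. Without the 2 members on chromosome 19, PRDX2 and GPX4, the count was 23 of 39 (59.0%), against 22.2 from deciles. Within 1 kb of any NM_ start 24 of 33 WT regions at the members were overlapped, against 62.6% of such regions in the whole list, and elsewhere 22 of 37, against 49.6%.

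Genes differed in this respect. At PRDX2 19 of 20 WT regions had a 195C>G overlap, against 16.8 from deciles over all chromosomes and 13.1 from those of chromosome 19. On chromosome 19, 40% of the WT list had an overlap in the 195C>G list. The 20 WT regions at PRDX2 overlapped each other in part and formed 13 separate sites. The counts and decile sums of each gene take such regions separately, so they are not independent. The WT region without a 195C>G overlap lay at RNASEH2A, upstream of PRDX2. At GPX4, on the same chromosome, 4 of 11 were overlapped, against 5.66 over all chromosomes and 3.94 on chromosome 19. The 7 WT regions upstream of GPX4, at ranks 8437 to 31910, had no overlap in 195C>G, K562 or BCL11A. All 3 WT regions at GCLM, 6 of 8 at GCLC, 7 of 9 at GPX1, 5 of 8 at SOD2 and 2 of 5 at CAT were overlapped. Neither of the 2 at SOD1 nor any of the 4 at TXNRD1 was, and their best ranks, 12185 and 18494, were the lowest among the 9 genes. With 1 library per arm and lists of unequal length, a WT region without an overlap is not shown to be lost.

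**Figure D4:**
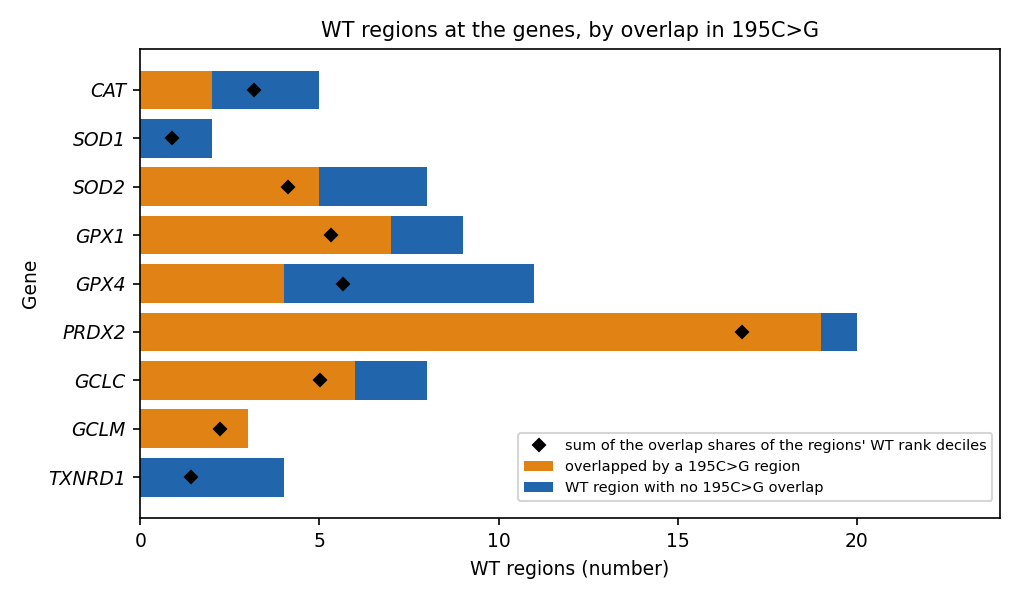
Number of WT regions at each gene (x axis), divided into those overlapped by a 195C>G region (orange) and those that were not (blue); black diamonds give the sum of the overlap shares of the regions' WT rank deciles over all chromosomes. PRDX2 has 19 of 20 overlapped against 16.8, and SOD1 and TXNRD1 have 0 of 2 and 0 of 4. WT regions that overlap each other are counted separately.

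The K562 list was compared with the HUDEP-2 ZBTB7A lists without CAT, since chromosome 11 differs between the builds. Of 22 K562 regions at the other members, 15 (68.2%) were overlapped in WT, against 62.5% of the whole K562 list. In the other direction 24 of 65 WT regions (36.9%) were overlapped in K562, against 35.9% of all. Both shares were near those of the whole lists. With 195C>G, 14 of 22 K562 regions were overlapped, against 46.2% of all, and 17 of 33 195C>G regions had a K562 overlap, against 45.3% of all. All 7 K562 regions at PRDX2 and both at GCLM were overlapped in WT, and the single K562 regions at SOD1, GCLC, TXNRD1 and NQO1 were not. Cell line and peak calling differ together between these lists and cannot be told apart.

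BCL11A regions were set against ZBTB7A regions in the same way. Of 33 BCL11A regions at the members, 15 (45.5%) were overlapped in K562, against 31.9% of the whole BCL11A list. With a reciprocal overlap of 50% required, the share was 18.2%, against 18.9% of the list. In the other direction 15 of 23 K562 regions (65.2%) had a BCL11A overlap, against 24.1% of that list. Without CAT, 19 of 31 BCL11A regions (61.3%) were overlapped in 195C>G, against 39.6% of all, and 23 of 31 (74.2%) in WT, against 57.5% of all. A BCL11A overlap was found for 21 of 33 195C>G regions (63.6%), against 29.3% of all, and for 30 of 65 WT regions (46.2%), against 25% of all. Each of the shares at 1 bp of overlap was above that of its whole list. The part of rank in these shares was not tested, and PRDX2 alone held 15 of the 33 BCL11A regions. Within 1 kb of any NM_ start, 10 of 13 BCL11A regions at the members were overlapped in K562, against 42.6% of such regions in the whole list, and 11 of 12 in WT, against 64.4%. Elsewhere the counts were 5 of 20 in K562, against 24.1%, and 12 of 19 in WT, against 52.5%. The BCL11A promoter region of a member without a WT overlap was the second of PRDX2 (12801326 to 12801695, rank 11786), which lies in the gene 400 bp from the start and had no overlap in any other list.

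Regions in the genes or their flanks were found at 8 of the 10 members for BCL11A, 10 in K562, 7 in 195C>G and 9 in WT, against 48.6% of all genes for BCL11A, 57.3% in K562, 53.4% in 195C>G and 68.3% in WT. Once overlapping regions were joined, there were 29 separate BCL11A sites, 21 K562 sites, 28 195C>G sites and 49 WT sites. Of the flanking regions, 2 of 21 for BCL11A, 3 of 11 in K562, 3 of 19 in 195C>G and 9 of 40 in WT lay within 1 kb of the start of another gene, and these are promoter regions of POLR2E, USP4, DNTTIP2, JUNB and RNASEH2A.

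A wider list of 65 other redox genes gives the setting of the 10: peroxidases and peroxiredoxins, thioredoxin, glutathione and NADPH enzymes, and regulators of NRF2. Promoter regions were found at 34 of them (52.3%) for BCL11A, 35 (53.8%) in K562, 31 (47.7%) in 195C>G and 44 (67.7%) in WT, each above the share of all genes given for that list. Of the 65, 15 (23.1%) had one in all 4 lists, against 10.0% of all genes. None was found in any list at 10 of them (15.4%), against 45.1% of all genes. The wider list was written with earlier results of these data known, so these shares are no independent support for the counts of the 10. The part of expression or chromatin state was not tested here either. The best ranked for BCL11A were SESN1, a sestrin gene of the p53 response, at rank 267 (score 259), KEAP1 at 485 (score 186) and SQSTM1, an autophagy receptor gene, at 515 (score 181). In K562 they were the ferritin heavy chain gene FTH1 at rank 112, the glutathione transferase gene GSTP1 at 115 and NFE2L2 at 193. In 195C>G they were BLVRB, a biliverdin reductase gene, at 611 (signal 123), SRXN1, which encodes sulfiredoxin, at 924 (signal 108) and PGLS, a pentose phosphate gene, at 964 (signal 107), and in WT SESN1 at 134 (signal 178), KEAP1 at 159 (signal 170.1) and MSRA, a methionine sulfoxide reductase gene, at 201 (signal 160.5).

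Among the regulators of this pathway, NFE2L2, KEAP1 and BACH1 had a promoter region in all 4 lists, as did MAFG, a small MAF partner of NRF2. CUL3, the ubiquitin ligase scaffold that works with KEAP1, had none for BCL11A, NFE2L1 none in K562, MAFF none in K562 or 195C>G, and MAFK none in any list. These other regulators were named after their values were seen. NFE2L2 stood at rank 1953 for BCL11A, 193 in K562, 2213 in 195C>G and 760 in WT. KEAP1 stood at 485 for BCL11A, 2119 in K562, 1096 in 195C>G and 159 in WT. BACH1, which encodes a heme-sensing repressor that competes for the same elements, stood at 4153 for BCL11A, 10437 in K562, 3532 in 195C>G and 4633 in WT.

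BLVRB shows what the 1 kb limit does. Its promoter region counted in 195C>G, with the summit 989 bp from the start, and for BCL11A, with the midpoint at 968 bp. In WT the region there held rank 33 (signal 237) but its summit lay at 1042 bp, and in K562 the midpoint lay at 1021 bp (rank 2462), so neither was counted.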

How the data were processed

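The 16 libraries comprised 8 ChIP and 8 controls. For read processing the submitters' processing notes name Trimmomatic (0.3.2), Bowtie, Bowtie2 (2.2.9), Picard and bedtools, and the build hg38. Controls are titled input but labelled with a control immunoglobulin. The authors deposited 4 peak lists: the BCL11A list gives a score per region, the 195C>G and WT lists, from SPP, a signal, a summit and a false discovery rate as −log10, and the K562 list positions only. How the score is scaled is not stated in these sources. By the names the authors gave them, the BCL11A and K562 lists passed the irreproducible discovery rate, a filter over replicates.

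Regions on standard chromosomes were kept and identical ones counted once. Annotation positions on chromosome 11 beyond HBG1 were raised by 4928 bp for the hg38 lists; this is the difference between the deposited end of CAT and its end in RefSeq GRCh38.p14, and the starts differ by a further 9 bp. Overlap meant at least 1 bp, and lists on different builds were not overlapped on chromosome 11. Counting was checked on simulated data. The genes, the wider list and the motifs were chosen with earlier results of these data known. Named genes were all 10 members, the 3 best-ranked genes of the wider list in each peak list, NFE2L2, KEAP1, BACH1, and neighbours of flanking regions. No test was made, since no list gives values per replicate. Alternative windows, flanks, list depths and overlap rules were run. Python 3.11.15, pandas 2.3.3 and scipy 1.17.1 were used.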

Additional observations from a re-analysis of the deposited data

How the results depend on the processing

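Of 65 alternatives over 21 results, 49 stayed within 1.5 times the reported count or median or inside the interval of the reported share. Those intervals count overlapping regions separately and are wide, for example 28.1 to 63.6% for BCL11A regions overlapped in K562. A share can thus move far and still stay inside. With the stronger 50% of each list (in K562 the first 50% of the file), the promoter counts were 4 for BCL11A (13.8% of all genes) and 4 in K562 (20.8%), the regions at the members 15 for BCL11A, 15 in K562 and 45 in WT, and the wider list 22 for BCL11A. With 10 kb flanks there were 21 BCL11A regions. For WT regions the share with a 195C>G overlap was 50.0% with reciprocal overlap of 50% (44.7% of all WT regions), 77.8% in the stronger 50% of each list (51.6%), 52.9% with summits within 200 bp (46.3%) and 53.1% over joined sites (50.1%). The median promoter rank in K562 was 39.2% of the list with SOD2 at its main start only. This setting and that of joined sites were chosen after seeing the data. The settings without the 2 members on chromosome 19 and with the RefSeq start of CAT were also not planned beforehand. Reciprocal overlap of 50% gave 21.5% of WT regions in K562 (18.9% of all), 40.9% of K562 regions in WT (35.7%), 18.2% of BCL11A regions in K562 (18.9%) and 51.6% of BCL11A regions in WT (33.5%). The BCL11A share in K562 was thus above that of the whole list at 1 bp and below it under this rule. No paired analysis was possible because no list gives values per replicate, and no replicate could be left out.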
